A study of Mus musculus with 48 samples.

Results

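The genes described here encode the lysosomal machinery that reports amino acid supply to the kinase complex mTORC1. They are the Ragulator subunits Lamtor1, Lamtor2, Lamtor3, Lamtor4 and Lamtor5, the Rag GTPase genes Rraga, Rragc and Rragd, and Flcn, which encodes folliculin. The 9 genes were taken by symbol from a table of 55487 genes. The list was drawn up with results of these data in view, and the genes beside Lamtor1 belong to the same machinery. Lamtor1 was chosen by its change in the ratio of ribosome footprints to RNA. This ratio was already known to be high in 2 of the genotypes described below, Rps15 P131S and Rpl22-/-. Lamtor1 is therefore described with no test at any level, and counts of genes that passed the test are over the others.

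Ragulator is a scaffold anchored to the lysosomal membrane. LAMTOR1 carries the lipid anchor and wraps around the pairs LAMTOR2 with LAMTOR3 and LAMTOR4 with LAMTOR5. Ragulator holds heterodimers of RagA or RagB with RagC or RagD, and when amino acids are plentiful these GTPases bring mTORC1 to the lysosome, where Rheb activates it. Folliculin with its partners FNIP1 or FNIP2 acts on the nucleotide state of RagC and RagD, and GATOR1 on that of RagA and RagB.

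The cells were clones of Ba/F3, a mouse pro-B line that depends on interleukin 3, and the mutant clones were made with CRISPR-Cas9. Each of 8 genotypes had 3 clones: WT, loss of 1 allele of Rpl5 (Rpl5+/-), Rpl11 (Rpl11+/-) or Rpl22 (Rpl22+/-), loss of both alleles of Rpl22 (Rpl22-/-), and the point mutants Rpl10 R98S, Rps15 P131S and Rps15 H137Y. Every one of the 24 clones gave 1 poly(A) RNA library and 1 library of ribosome footprints, the 28 to 30 nt fragments that ribosomes protect from nuclease, both from a single divided lysate. All genotypes, WT included, grew with 10% serum and 1 ng/ml interleukin 3 and received 0.1 mg/ml cycloheximide for 1 min before harvest. The labels give R98S and H137Y on both alleles. For P131S the genotype field names both alleles, while the titles of the RNA libraries name the mutation once. The question was how each ribosomal protein defect changed RNA levels and their translation.

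Libraries held 13029073 to 38258559 counts in RNA and 15598994 to 72044439 in footprints, where clone 60 of Rpl22+/- was the shallowest. Levels are given as CPM, the count scaled by library size after correction for composition. They are relative levels within messenger RNA or within footprints, and not plain shares of the total. Less RNA per cell cannot be told apart from a lower relative level. Of the markers of the labelled cell type, Ptprc (167 to 302 CPM in RNA) and the interleukin 3 receptor gene Csf2rb (449 to 1719 CPM) were present in all 24 clones. The pro-B genes Pax5, Ebf1, Vpreb1, Igll1, Rag1 and Rag2 were under 1 CPM in every clone, whereas Cd79b was at 3.34 to 9.91 CPM in all 24 and Cd79a reached 9.81 CPM in 1 clone. The T cell marker Cd3g reached 12.9 CPM in a Rps15 P131S clone, while Cd3e, Cd4 and Cd8a were at no more than 0.0594 CPM in any clone. Summed RNA of 5 myeloid markers was 1.77 to 7.99 CPM in WT. The Rps15 P131S clones had 6.89 to 58.8 CPM and the Rps15 H137Y clones 24.7 to 90.7 CPM, mostly Lyz2. In P131S and H137Y, Lyz2 averaged 25.4 and 40.7 CPM, Itgam 2.96 and 4.66, and Mpo 1.90 and 6.57. Elane was at no more than 0.201 CPM. Summed RNA of the erythroid markers was 29.2 to 228 CPM in H137Y against 15.4 to 41.5 in WT, all of it Hba-a1. H137Y thus overlapped WT, while all Rpl11+/- clones lay above it, at 50.5 to 66.2 CPM. Myeloid sums were 7.45 to 20.35 CPM in Rpl5+/-, 7.36 to 9.49 in Rpl11+/- and 0.847 to 2.09 in R98S, each overlapping WT. The part of other cell types in the results below was not tested. RNA of the edited gene Rps15 itself split the Rps15 clones: it was 906 CPM in P131S clone 24 against 1825 and 1935 in clones 63 and 20, and 1829 CPM in H137Y clone 16 against 817 and 874 in clones 6 and 2, beside 1432 to 1454 in WT.

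RefSeq promoter windows on GRCm38.p6 were found for 8 of the 9 genes, and 3 of them contain CACGTG in the 250 bases before the start. This hexamer, which reads the same on both strands, is the core of the element bound by TFEB, TFE3 and MITF, transcription factors that mTORC1 holds back and that switch on lysosomal genes. The windows are shown because the RNA of these 3 genes took different courses in the same Rps15 clones, with Lamtor4 lower, Lamtor1 higher in P131S and Rragc called in neither. Each is on the plus strand, at chr7:101905587-101905836 for Lamtor1, chr5:138255232-138255481 for Lamtor4 and chr4:123917183-123917432 for Rragc, with the hexamer in capitals.
Lamtor1: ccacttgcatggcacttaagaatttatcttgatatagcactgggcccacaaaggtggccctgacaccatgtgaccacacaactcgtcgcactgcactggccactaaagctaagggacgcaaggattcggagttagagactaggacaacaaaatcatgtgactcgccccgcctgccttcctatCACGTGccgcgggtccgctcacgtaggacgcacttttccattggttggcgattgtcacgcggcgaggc
Lamtor4: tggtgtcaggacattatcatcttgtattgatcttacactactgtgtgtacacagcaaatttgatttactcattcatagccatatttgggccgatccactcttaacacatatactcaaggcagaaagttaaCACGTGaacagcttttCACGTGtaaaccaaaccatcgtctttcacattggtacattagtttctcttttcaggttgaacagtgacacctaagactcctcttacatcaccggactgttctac
Rragc: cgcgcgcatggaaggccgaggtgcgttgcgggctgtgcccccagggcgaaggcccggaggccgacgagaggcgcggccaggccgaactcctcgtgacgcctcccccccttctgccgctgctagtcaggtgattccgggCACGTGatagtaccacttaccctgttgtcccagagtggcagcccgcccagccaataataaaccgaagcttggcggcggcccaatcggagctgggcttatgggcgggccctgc
The hexamer begins 68 bases before the start in Lamtor1, 112 in Rragc and 120 and 104 in Lamtor4. Among 32851 windows of this length, 6.02% hold at least 1 copy and 0.429% at least 2. A match describes these letters and shows no binding. Members whose windows lack the hexamer also took different courses in P131S RNA, with Lamtor5 higher (log2 change 0.47) and Flcn lower (-0.32).

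Lamtor1 (chromosome 7, 101905837 to 101911903), the membrane anchor of Ragulator, had nearly the same RNA level in most genotypes and a footprint level that ranged from 4.13 to 42.4 CPM. In WT clones 3, 2 and 1 its RNA was 56.0, 58.2 and 55.4 CPM and its footprints were 7.53, 6.64 and 7.10 CPM. In Rps15 P131S clones 24, 63 and 20 RNA was 73.6, 72.3 and 79.0 CPM and footprints were 25.6, 27.8 and 42.4 CPM. All 3 P131S clones lay above all WT clones on both measures, by far more in footprints. The log2 change against WT was 0.41 ± 0.07 (SE) in RNA and 2.17 ± 0.25 in footprints, which is 4.50-fold. The change in translational efficiency, the footprint change beyond that of the RNA, was 1.74 ± 0.25.

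The ratio of footprint CPM to RNA CPM puts the 8 genotypes in order for Lamtor1. It was lowest in Rpl10 R98S, at 0.0716, 0.0761 and 0.0863 in clones A30, A29 and A34. Rpl11+/- clones followed at 0.0910, 0.101 and 0.123, WT at 0.135, 0.114 and 0.128, and Rpl5+/- at 0.0881, 0.186 and 0.124. These 3 genotypes overlapped each other, so their order is not larger than the spread between clones. Rpl22+/- clones 13, 16 and 60 stood at 0.167, 0.170 and 0.178, above all WT clones and below all Rpl22-/- clones, which were at 0.272, 0.267 and 0.287, though Rpl5+/- clone 76 reached as high. Loss of 1 and of both Rpl22 alleles thus gave separate levels, with a spread of 0.00556 and 0.0104 (SD, n = 3 clones each). Rps15 H137Y had 0.368, 0.183 and 0.221 in clones 16, 6 and 2, a range that takes in all Rpl22-/- clones. Rps15 P131S was highest at 0.348, 0.384 and 0.536 and overlapped H137Y through clone 16 alone.

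RNA of Lamtor1 varied much less and followed that order only in part. Mean RNA was highest in P131S (75.0 CPM) and Rpl22-/- (61.9 CPM), then Rpl22+/- (59.8 CPM) and H137Y (59.0 CPM). R98S, lowest in the ratio, had 58.5 CPM beside 56.5 CPM in WT. The 3 Rpl22-/- clones had 61.5 to 62.2 CPM and the 3 H137Y clones 58.7 to 59.5 CPM, a log2 change of 0.13 ± 0.07 and 0.06 ± 0.07 against WT, while their footprint changes were 1.27 ± 0.25 and 1.10 ± 0.25. In R98S the RNA change was 0.05 ± 0.07 and the footprint change -0.63 ± 0.25, with footprints of 4.13 to 5.17 CPM, all below the WT clones. Efficiency changes were 1.13 ± 0.24 in Rpl22-/-, 1.02 ± 0.25 in H137Y, 0.45 ± 0.25 in Rpl22+/- and -0.70 ± 0.25 in R98S. Within both Rps15 genotypes the clone with the most Rps15 RNA, P131S clone 20 and H137Y clone 16, was also the clone with the highest Lamtor1 ratio. Without H137Y clone 16 the H137Y efficiency change was 0.71.

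Lamtor1 overlaps Tomt in the RefSeq table, but Tomt was at most 0.397 CPM in RNA and 0.0429 CPM in footprints. Lamtor1 footprint counts were fractional in 16 of 24 libraries, as they can be where reads map to several places, and so were those of 35.3% of well-covered genes at the footprint level in at least 12 libraries. The share of Lamtor1 footprints that came from shared reads was not tested.

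**Figure D1:**
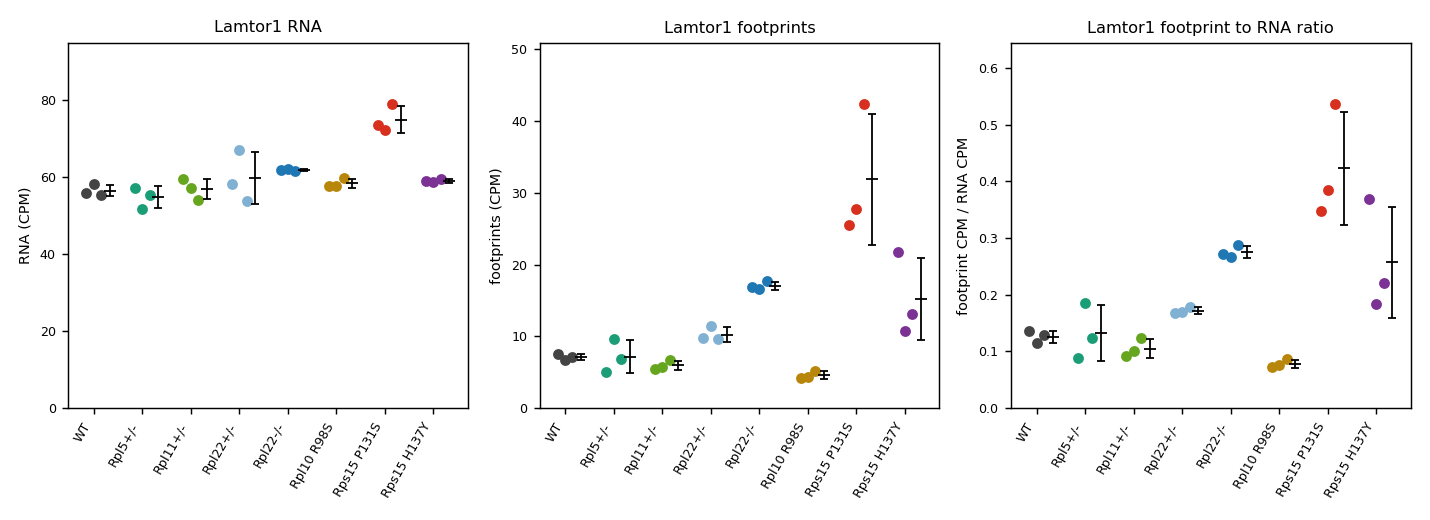
Lamtor1 in each of the 24 clones, by genotype: RNA in CPM (left), footprints in CPM (middle) and the ratio of footprint CPM to RNA CPM (right). Points are clones and the bars beside them mean and SD over 3 clones. RNA stays between 51.7 and 79.0 CPM while the ratio runs from 0.0716 in Rpl10 R98S to 0.536 in Rps15 P131S.

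Lamtor2 (chromosome 3, 88549819 to 88552951) pairs with LAMTOR3 in the scaffold and none of its changes was called by edgeR. Its RNA was 84.4, 84.3 and 81.9 CPM in WT and stayed between 72.6 and 93.2 CPM over all 24 clones. Footprints were 49.8, 48.9 and 57.1 CPM in WT, 60.6, 60.5 and 58.0 in P131S, and 42.0, 37.4 and 42.6 in R98S. The P131S clones lay just above and the R98S clones below the WT clones, but neither passed the test, at log2 changes of 0.20 ± 0.14 (edgeR adjusted p = 0.375) and -0.35 ± 0.14 (adjusted p = 0.242).

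Lamtor3 (chromosome 3, 137918555 to 137928762), whose product MP1 also binds the kinases MEK1 and ERK1, was lower in RNA in Rps15 H137Y. Its RNA was 40.1, 38.8 and 39.7 CPM in WT, 38.1, 35.7 and 44.8 in P131S and 33.4, 33.5 and 32.9 in H137Y. The H137Y clones were tightly grouped below all others, and the log2 change was -0.25 ± 0.07 (adjusted p = 0.0099). In P131S the change was 0.00 ± 0.07 (adjusted p = 0.994). Footprints in H137Y, at 16.9, 21.8 and 25.8 CPM, overlapped the WT values of 24.2, 22.8 and 34.4 CPM. All 24 libraries had fractional Lamtor3 footprint counts, so its footprint level is uncertain where reads were shared.

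Lamtor4 (chromosome 5, 138255482 to 138259395), which pairs with LAMTOR5, changed most in RNA among the members. Its RNA was 120, 110 and 108 CPM in WT clones 3, 2 and 1. Rps15 P131S clones had 94.0, 88.4 and 69.5 CPM, and H137Y clones had 43.6, 63.4 and 45.8 CPM. The groups were ordered without overlap, WT above P131S above H137Y. RNA fell by log2 0.43 ± 0.13 in P131S (adjusted p = 0.00878), and in H137Y the change was -1.15 ± 0.13 (adjusted p = 1.07e-06), to 0.45 of the WT level. The difference between the Rps15 genotypes was itself called, at log2 0.72 ± 0.13 (adjusted p = 0.000412). Without P131S clone 20 the P131S change was -0.31 and missed the threshold (adjusted p = 0.0594).

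Footprints of Lamtor4 were lower in H137Y too. WT clones had 195.41, 131.02 and 172.22 CPM, P131S clones 113, 134 and 106 CPM, and H137Y clones 74.8, 95.8 and 53.1 CPM. All H137Y clones lay below all WT clones, while P131S overlapped WT through clone 63. The footprint change was -1.16 ± 0.20 in H137Y (adjusted p = 0.000831) and -0.50 ± 0.20 in P131S, which was not called (adjusted p = 0.0921), but was with library totals in place of scaling (-0.70, adjusted p = 0.0172). The ratio was 1.62, 1.19 and 1.59 in WT and 1.72, 1.51 and 1.16 in H137Y, and the efficiency change was -0.03 ± 0.24 in H137Y and -0.09 ± 0.24 in P131S (adjusted p = 1 for both). Lamtor4 RNA was also under the WT clones in R98S, at 92.4, 86.4 and 98.1 CPM, a log2 change of -0.29 ± 0.13 that was not called (adjusted p = 0.133) in the fit to all genotypes.

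Lamtor5 (chromosome 3, 107278858 to 107284082), also known as HBXIP, went the other way from its partner in P131S. Its RNA was 54.4, 52.8 and 47.6 CPM in WT, 71.3, 70.1 and 72.6 in P131S and 58.5, 54.4 and 62.1 in H137Y. The P131S clones were close together and above every other clone of the series, whose highest was 62.1 CPM. RNA rose by log2 0.47 ± 0.07 in P131S (adjusted p = 1.2e-05), which is 1.38-fold. In H137Y the change was 0.18 ± 0.07 (adjusted p = 0.0391), although H137Y clone 6 equalled the highest WT clone at 54.4 CPM. That call was lost without H137Y clone 16 (0.17, adjusted p = 0.0829), H137Y clone 2 (0.13, 0.165), WT clone 2 (0.19, 0.0607) or WT clone 1 (0.12, 0.208), and with library totals in place of scaling the change was 0.06 (adjusted p = 0.547).

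Lamtor5 fell in Rpl10 R98S, to 40.8, 40.9 and 44.7 CPM in clones A30, A29 and A34, all below the WT clones. The log2 change was -0.29 ± 0.07 (adjusted p = 0.00701). Footprints rose in P131S, from 45.0, 34.8 and 47.8 CPM in WT to 59.1, 50.4 and 68.2 CPM, by log2 0.48 ± 0.15 (adjusted p = 0.0275). This footprint call was lost without P131S clone 20 (0.36, adjusted p = 0.161) or WT clone 2 (0.39, adjusted p = 0.114). The efficiency change was -0.01 ± 0.16 in P131S and -0.12 ± 0.16 in H137Y. As with Lamtor3, its footprint counts were fractional in all 24 libraries.

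**Figure D2:**
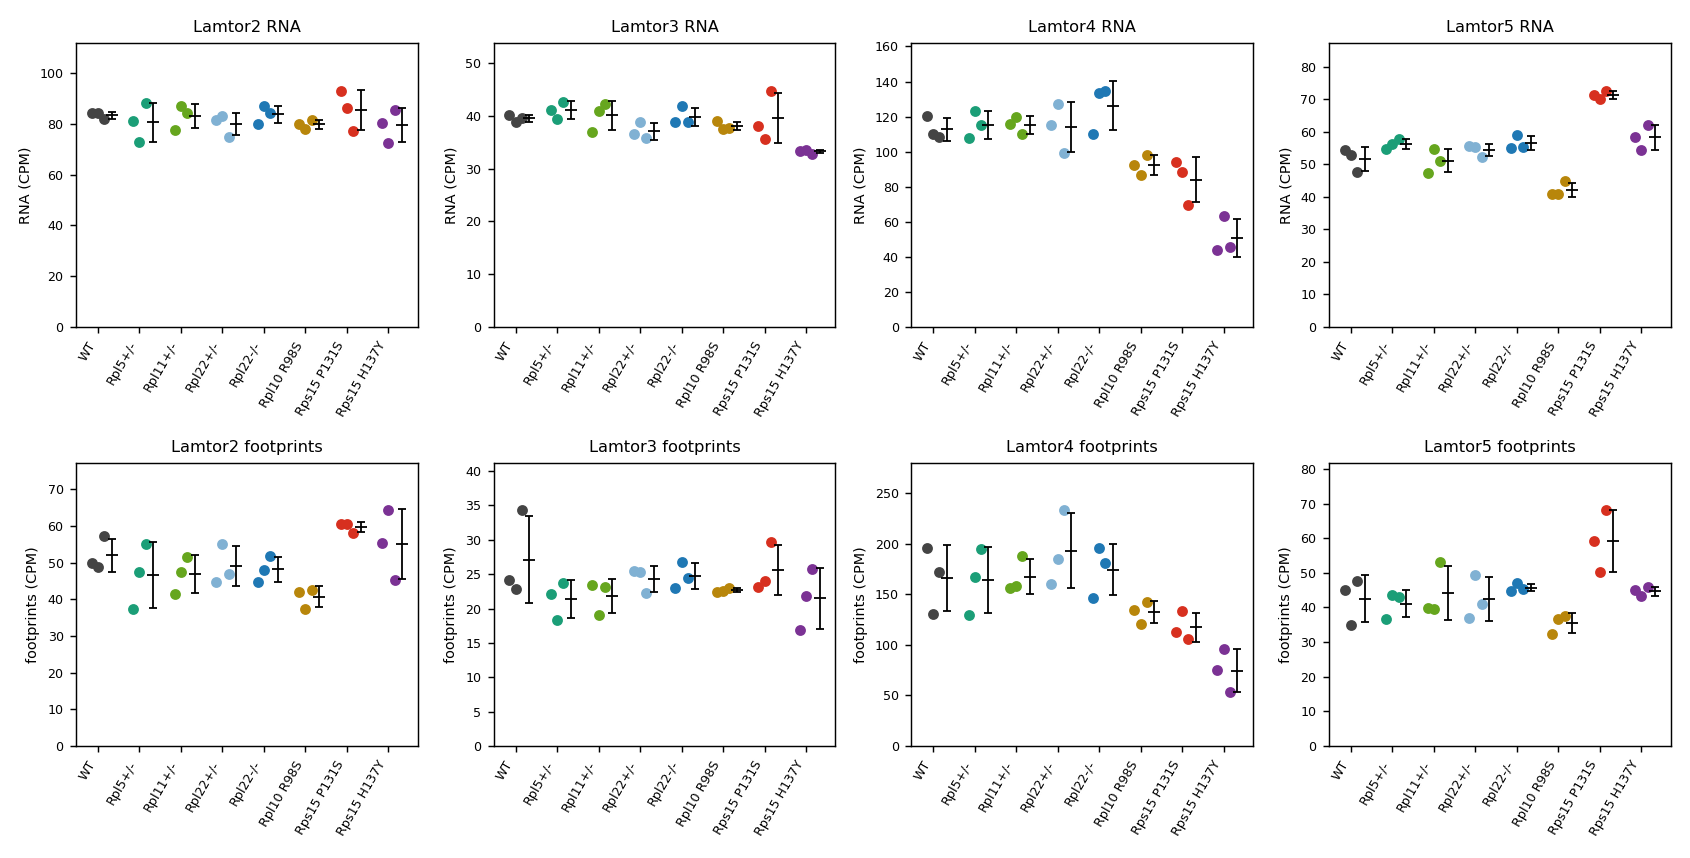
RNA (top) and footprints (bottom) in CPM of Lamtor2, Lamtor3, Lamtor4 and Lamtor5 in each clone, by genotype. Points are clones and bars mean and SD over 3 clones. Lamtor4 RNA steps down from 108 to 120 CPM in WT to 43.6 to 63.4 CPM in Rps15 H137Y, and Lamtor5 RNA is above 70 CPM in the 3 Rps15 P131S clones only.

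Rraga (chromosome 4, 86575673 to 86577285) encodes RagA and has a close paralog in Rragb. Its RNA was 76.6, 76.1 and 73.2 CPM in WT, 93.1, 81.0 and 78.6 in P131S and 70.5, 63.3 and 69.5 in H137Y. P131S clones lay above and H137Y clones below all WT clones, though neither change was called (0.16 ± 0.07, adjusted p = 0.0724, and -0.15 ± 0.07, adjusted p = 0.101). The Rps15 genotypes did differ from each other, by log2 0.31 ± 0.07 (adjusted p = 0.00327). Footprints of Rraga were 101, 106 and 97.3 CPM in WT, 150, 138 and 141 in P131S and 133, 104 and 107 in H137Y. They rose by log2 0.49 ± 0.11 in P131S (adjusted p = 0.00405), 1.41-fold, with all P131S clones above all WT clones. With library totals in place of scaling this was 0.29 (adjusted p = 0.0688). H137Y overlapped WT in footprints (0.18 ± 0.11, adjusted p = 0.339).

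The ratio of Rraga footprints to RNA was 1.32, 1.4 and 1.33 in WT and higher in every clone of both Rps15 genotypes, at 1.61, 1.70 and 1.80 in P131S and 1.89, 1.65 and 1.55 in H137Y. The efficiency change was 0.31 ± 0.13 in each and was not called (adjusted p = 0.218 and 0.227). Every clone of Rpl11+/- (1.44 to 2.00), Rpl22+/- (1.45 to 1.61), Rpl22-/- (1.44 to 1.58) and R98S (1.53 to 1.62) also exceeded the WT clones. Their efficiency changes of 0.15 to 0.29 were not called, and Rpl5+/- overlapped WT. All comparisons of the Rraga ratio, those of the Rps15 genotypes included, share the same WT clones. The separations are therefore not independent of each other. How often other genes separate from WT in this way was not computed. Footprint counts of Rraga were fractional in 21 of 24 libraries, as were those of Rragb. Whether the paralogs shared reads was not tested, so both footprint levels are uncertain. RNA counts of both were whole in all libraries. Rragb RNA was 13.8, 13.6 and 14.6 CPM in WT and 9.89, 8.38 and 9.86 in H137Y, a change of -0.58 ± 0.14 (adjusted p = 0.00263).

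Rragc (chromosome 4, 123917433 to 123936997) encodes RagC, and edgeR called none of its changes. Its RNA stayed between 61.7 and 78.3 CPM over the 24 clones, with 70.4, 68.7 and 65.1 CPM in WT. All Rpl22-/- clones, at 75.5 to 77.5 CPM, and all R98S clones, at 75.1 to 78.3 CPM, lay above the WT clones, with log2 changes of 0.17 ± 0.06 (edgeR adjusted p = 0.0886) and 0.16 ± 0.06 (adjusted p = 0.0662). DESeq2 did call Rragc in Rpl22-/-. The clones of Rpl5+/- (70.79 to 74.92 CPM) and Rpl22+/- (72.64 to 73.41 CPM) also lay above the highest WT clone (70.45 CPM). Their log2 changes of 0.09 ± 0.06 and 0.10 ± 0.06 were not called. Footprints were 11, 8.60 and 11.4 CPM in WT and reached down to 3.32 CPM in H137Y clone 6 and 5.12 CPM in Rpl22+/- clone 60. These were the lowest values of the series for this gene, and both libraries stood apart from the other clones of their genotype, which had 8.69 to 12.8 CPM. Log2 changes in footprints ran from -0.34 ± 0.32 in Rpl22+/- (adjusted p = 0.679) upward. D130007C19Rik overlaps Rragc in the RefSeq table.

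Rragd (chromosome 4, 32982998 to 33022180), the RagD gene, had no RNA count in any of the 24 RNA libraries. A count of 0 allows at most 3 counts, or 0.0784 to 0.230 CPM depending on the library. Footprint counts were 0 to 3. Rragd failed the filter on low counts and was not tested, so 7 of the 8 other members were.

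Flcn (chromosome 11, 59791408 to 59810039) was lower in RNA in Rpl22-/- and in Rps15 P131S. Its RNA was 17.1, 14.8 and 16.8 CPM in WT, 13.2, 11.8 and 10.2 in Rpl22-/- and 11.9, 13.2 and 13.9 in P131S. All mutant clones of these 2 genotypes lay below all WT clones. RNA fell by log2 0.46 ± 0.12 in Rpl22-/- (adjusted p = 0.0206) and by 0.32 ± 0.11 in P131S (adjusted p = 0.0261). The other Rpl22 genotype, Rpl22+/-, had 13.2 to 13.6 CPM and a change of -0.28 ± 0.11 that was not called (adjusted p = 0.226). Rpl5+/- clones, at 12.67 to 14.77 CPM, were also below the lowest WT clone (14.85 CPM). Their change of -0.25 ± 0.12 was not called (adjusted p = 0.312).

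With a clone left out, the log2 change of Flcn RNA stayed between -0.55 and -0.38 in Rpl22-/- and between -0.38 and -0.26 in P131S, though not always past the threshold. The Rpl22-/- call was lost without Rpl22-/- clone 30 (adjusted p = 0.0723), clone 776 (0.121), WT clone 3 (0.0992) or WT clone 1 (0.079), and the P131S call without P131S clone 24 (0.101), WT clone 3 (0.0927) or WT clone 1 (0.077). Footprints were 8.78, 7.67 and 8.90 CPM in WT, 6.69, 6.84 and 5.91 in Rpl22-/- and 8.03, 7.99 and 8.81 in P131S, with changes of -0.38 ± 0.37 and -0.03 ± 0.37 that were not called. Clone 60 of Rpl22+/- again stood apart, at 1.83 CPM against 10.4 and 8.27 in its sister clones. Of folliculin's partners, Fnip1 RNA fell by log2 0.40 ± 0.11 in P131S (26.7 ± 3.85 CPM against 35.2 ± 1.71 in WT, SD, n = 3; adjusted p = 0.00481) and by 0.40 ± 0.11 in H137Y (26.6 ± 0.759 CPM, adjusted p = 0.00546), while Fnip2 was called in neither.

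**Figure D3:**
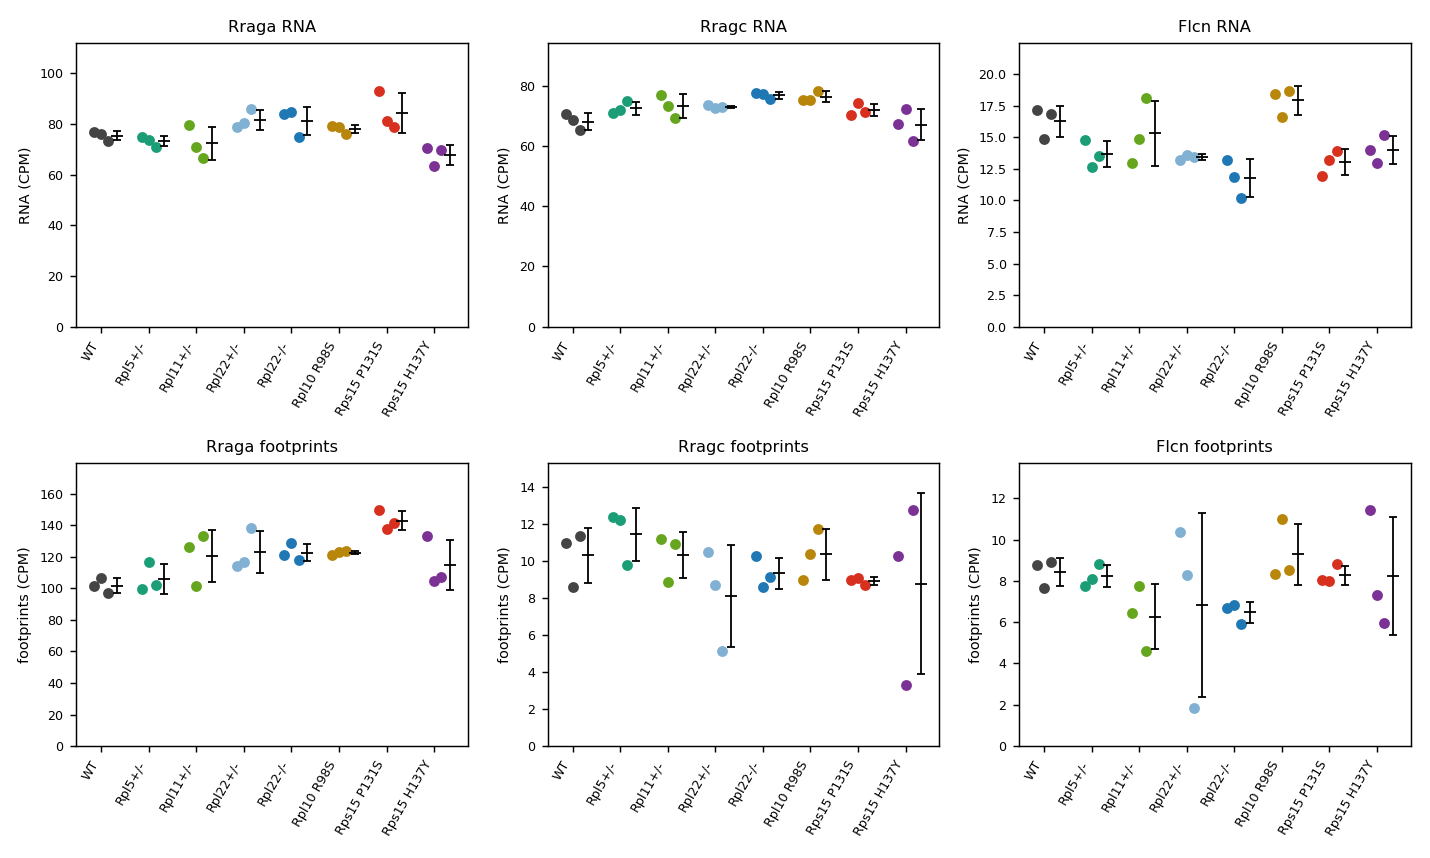
RNA (top) and footprints (bottom) in CPM of Rraga, Rragc and Flcn in each clone, by genotype. Points are clones and bars mean and SD over 3 clones. Rraga footprints are 138 to 150 CPM in Rps15 P131S against 97.3 to 106 in WT, and the low points of Rragc and Flcn footprints are Rps15 H137Y clone 6 and Rpl22+/- clone 60.

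Counted together, the 7 tested members changed about as often in Rps15 RNA as other genes did. In P131S against WT, 3 of 7 passed the edgeR test (Lamtor5 higher, Lamtor4 and Flcn lower), or 42.9%, beside 47.0% of all 12814 genes. In H137Y the same number passed (Lamtor5 higher, Lamtor3 and Lamtor4 lower), beside 41.0% of all genes. The share near the background is not a result about these genes. P131S against H137Y called 4 of 7, all higher in P131S (Lamtor3, Lamtor4, Lamtor5 and Rraga), beside 25.2% of all genes in either direction and 12.6% higher. When only the 2 Rps15 genotypes entered the fit, none of the 4 was called (adjusted p = 0.0586 to 0.226) and 378 genes were called in place of 3233.

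Outside Rps15, Rpl22-/- had 1 of 7 members called in RNA (Flcn, lower) beside 5.27% of all genes and 3.80% lower, and R98S 1 of 7 (Lamtor5, lower) beside 12.9% and 6.03% lower. None was called in Rpl5+/- (1.04% of all genes), Rpl11+/- (11.8%) or Rpl22+/- (3.90%), also not by DESeq2 or limma voom. An unadjusted p was under 0.05 for 1, 0 and 1 member, beside 1896, 3447 and 1983 of 12814 genes. In footprints P131S had 2 of 7 called (Lamtor5 and Rraga, both higher) beside 16.7% of 16217 genes and 8.41% higher, and H137Y 1 of 7 (Lamtor4, lower) beside 11.7% and 6.44% lower. P131S against H137Y called none in footprints (4.17% of all genes), although DESeq2 and limma voom each called Lamtor4 there. In that comparison an unadjusted p was under 0.05 for 3 members, beside 3079 of 16217 genes. No member was called in footprints in the other 5 genotypes, where the all-gene shares were 1.62% for R98S, 0.253% for Rpl22+/-, 0.105% for Rpl22-/-, 0.0740% for Rpl11+/- and 0.0123% for Rpl5+/-. Of those 35 single tests 5 had an unadjusted p under 0.05, beside 667 to 2223 of 16217 genes in each genotype. DESeq2 and limma voom called no member there. All comparisons against WT share the 3 WT clones.

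Translational efficiency gave no call for any of the 7 members in any genotype. All-gene shares were 3.14% in P131S, 2.73% in H137Y, 0.217% in R98S, 0.0121% in Rpl22-/-, 0.00604% in Rpl22+/- and 0 in Rpl5+/- and Rpl11+/-. Over the 7 comparisons with WT, 4 of 49 single tests had an unadjusted p under 0.05, beside 450 to 2485 of 16568 genes in each comparison. DESeq2, limma voom, the fit with a clone block and limma on per-clone ratios called no member. P131S against H137Y called none of the 7 (0.682% of all genes), nor did DESeq2 or limma voom. No unadjusted p of a member was under 0.05 there, beside 1895 of 16568 genes. The clone block raised the genes called in all from 520 to 806 in P131S, from 36 to 78 in R98S, from 1 to 10 in Rpl22+/- and from 2 to 5 in Rpl22-/-. The median efficiency change of the 7 members was -0.01 in P131S and -0.03 in H137Y, beside -0.01 and -0.02 over all genes.

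**Figure D4:**
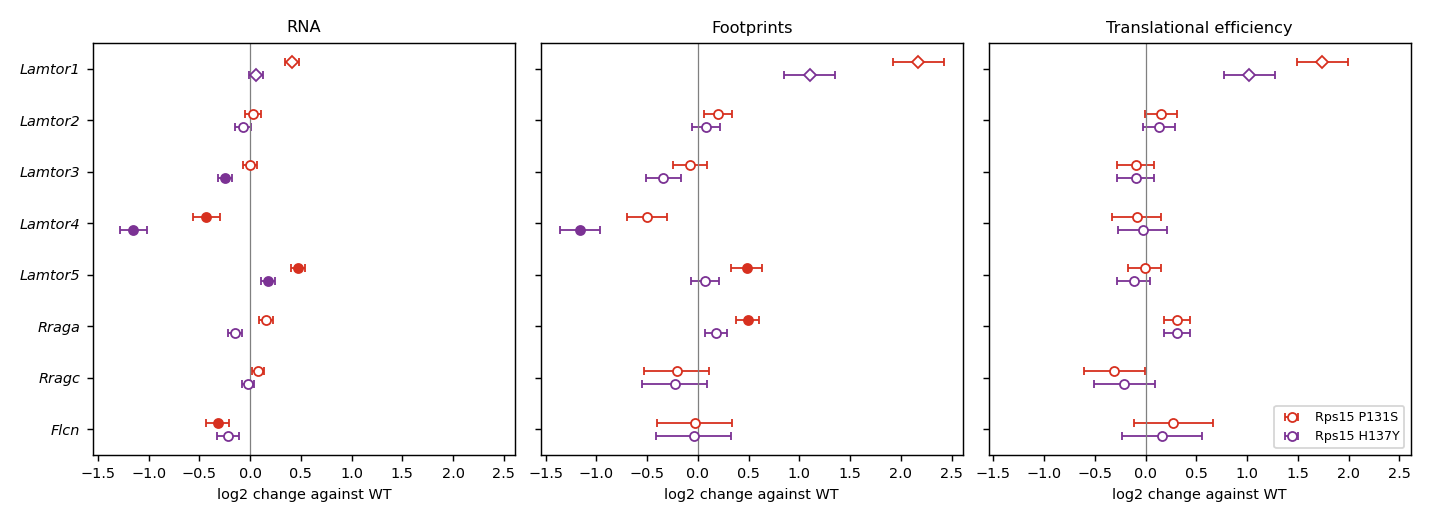
Log2 change against WT with its SE in Rps15 P131S (red) and Rps15 H137Y (purple) for RNA, footprints and translational efficiency. Filled circles passed the edgeR test at an adjusted p under 0.05, open circles did not, and open diamonds (Lamtor1) were not tested. Lamtor4 is at -1.15 in RNA and -1.16 in footprints in H137Y, while its efficiency is near 0.

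The genes whose ratio of footprints to RNA varied most like that of Lamtor1 over the 24 clones were found among 8440 other genes by Pearson correlation of the log2 ratio. They were Lsm8 (r = 0.885), 1700025G04Rik (0.864), Apba3 (0.856), 2010204K13Rik (0.855) and Dlgap5 (0.850). Apba3 had log2 ratios 1.07 above WT in P131S, 0.89 in H137Y, 0.47 in Rpl22-/- and -0.75 in R98S, the same signs as Lamtor1 in these 4 genotypes. In Rpl11+/- the signs were opposite, at 0.18 for Apba3 and an efficiency change of -0.27 for Lamtor1. Lsm8 was nearly level with WT in R98S, at -0.03. The genes were picked by this correlation, so shared signs follow from the choice and are no support. The clones share genotypes and sequencing libraries, so these values are a description. Among the members Lamtor2 ranked 367 (r = 0.585) and Rraga 1173 (0.417), and Rragc was negative (-0.137).

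Other genes of the pathway were taken from lists by function and read against all genes in the same comparison. Most amino acid sensors were lower in Rps15 RNA: 5 of 7 were lower and 1 higher in P131S, and 5 lower and none higher in H137Y, with medians of -0.65 and -0.41 beside -0.01 and 0.01 over all genes. About 23.4% and 20.0% of all genes were called lower. Sesn2, a leucine sensor that holds back GATOR2, went from 87.5 ± 2.04 CPM (SD, n = 3) in WT to 40.9 ± 6.63 in H137Y, a log2 change of -1.10 ± 0.12 (adjusted p = 1.07e-06). Its footprints fell from 72.8 ± 7.82 CPM to 32.0 ± 1.56 in P131S (-1.19 ± 0.14, adjusted p = 3.06e-05) and 31.3 ± 2.22 in H137Y (-1.22 ± 0.14, adjusted p = 2.69e-05). Bmt2, which encodes the S-adenosylmethionine sensor SAMTOR, was lower in RNA in both Rps15 genotypes (-1.05 ± 0.17 and -0.83 ± 0.17) and in Rpl11+/- (-0.70 ± 0.17), Rpl22-/- (-0.68 ± 0.17) and R98S (-0.70 ± 0.17). Castor1, the arginine sensor, was the 1 that rose in P131S, from 3.80 ± 1.86 to 12 ± 2.88 CPM (1.66 ± 0.51, adjusted p = 0.0134). Footprints of Slc38a9, the lysosomal arginine transporter that also signals to the Rags, fell by log2 0.82 ± 0.22 in P131S (adjusted p = 0.0144) and by 0.79 ± 0.22 in H137Y (adjusted p = 0.0245).

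The complexes that act on RagA had calls in both directions, beside all-gene shares of 23.7% higher and 23.4% lower in P131S and 21.0% and 20.0% in H137Y. Of 6 tested GATOR1 and KICSTOR genes, 2 were higher and none lower in P131S RNA, and 1 was higher and 1 lower in H137Y. Kptn fell in H137Y in RNA (-0.30 ± 0.11, adjusted p = 0.0278) and in footprints (-0.73 ± 0.16, adjusted p = 0.00545). Of 5 GATOR2 genes, 1 was higher and 2 lower in RNA in either Rps15 genotype. Wdr24, a GATOR2 subunit, had lower translational efficiency in P131S (-0.81 ± 0.22, adjusted p = 0.0279), and Seh1l, which also serves in the nuclear pore, higher (0.58 ± 0.14, adjusted p = 0.013), where 3.14% of all genes were called.

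Downstream, of 9 genes of mTORC1, the TSC complex and Rheb, 2 were higher and 2 lower in RNA in each Rps15 genotype, near the all-gene shares of 23.7% higher and 23.4% lower in P131S and 21.0% and 20.0% in H137Y. Tsc1, which inhibits Rheb together with TSC2, was lower in P131S (18.3 ± 0.849 against 29.7 ± 2.34 CPM, -0.70 ± 0.09, adjusted p = 4.53e-06), in H137Y (-0.49 ± 0.09), in Rpl22-/- (-0.43 ± 0.09), in Rpl22+/- (-0.38 ± 0.09) and in Rpl11+/- (-0.34 ± 0.09). Tbc1d7, the third subunit of the TSC complex, had footprints of 44.0 ± 7.14 CPM in WT, 17.7 ± 3.23 in P131S and 20.7 ± 3.73 in H137Y, and its efficiency change of -1.13 ± 0.30 in P131S was called (adjusted p = 0.0282). Among 8 mTORC1 substrates and TFEB family genes, 5 rose and 3 fell in P131S RNA, and 3 rose and 2 fell in H137Y. Eif4ebp1, a translation repressor that mTORC1 phosphorylates, fell from 218 ± 2.69 CPM to 136.7 ± 22.5 in P131S (-0.67 ± 0.19, adjusted p = 0.00802) and 106 ± 9.48 in H137Y (-1.04 ± 0.19, adjusted p = 0.000353). Mitf rose by 0.74 ± 0.20 and 0.65 ± 0.20, and Tfe3 footprints fell by log2 0.62 ± 0.15 in P131S (adjusted p = 0.00824).

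At the lysosome itself, 8 of 17 vacuolar ATPase genes were higher and 3 lower in P131S RNA, with a median of 0.22. Of all genes, 23.7% were called higher and 23.4% lower there. In H137Y 3 vacuolar ATPase genes were higher and 3 lower, beside 21.0% of all genes called higher and 20.0% lower. The same all-gene shares stand beside the P131S and H137Y counts that follow. Atp6v0e, a membrane subunit of this proton pump, rose from 73.3 ± 4.58 to 123 ± 5.64 CPM in P131S (0.75 ± 0.07, adjusted p = 1.63e-07) and was also higher in R98S (0.37 ± 0.07), Rpl11+/- (0.33 ± 0.07) and Rpl5+/- (0.32 ± 0.07). Of 22 lysosomal genes known as TFEB targets, 1 rose and 4 fell in P131S and 5 rose and 3 fell in H137Y, with medians of -0.07 and 0.05. In the BORC complex, which binds Ragulator and positions lysosomes, 4 of 8 rose and none fell in P131S, among them Bloc1s2 (94.1 ± 2.66 to 139 ± 13.7 CPM, 0.56 ± 0.08, adjusted p = 7.85e-06). Of the 4 MEK and ERK genes 1 rose and none fell in P131S, and 1 rose and 2 fell in H137Y. In R98S 1 rose and 1 fell, beside 12.9% of all genes called and 6.03% called lower. Map2k2, which encodes MEK2, was higher in P131S (0.49 ± 0.07), H137Y (0.48 ± 0.07) and R98S (0.39 ± 0.07). Mapk3, which encodes ERK1, was lower in H137Y (-0.31 ± 0.09). With library totals in place of scaling, the median of all genes moved by up to 0.163 in RNA and 0.204 in footprints and higher calls went from 50.3% to 26.7% of all calls in P131S RNA and from 51.3% to 32.1% in H137Y, so changes of that size are relative to the median gene.

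**Figure D5:**
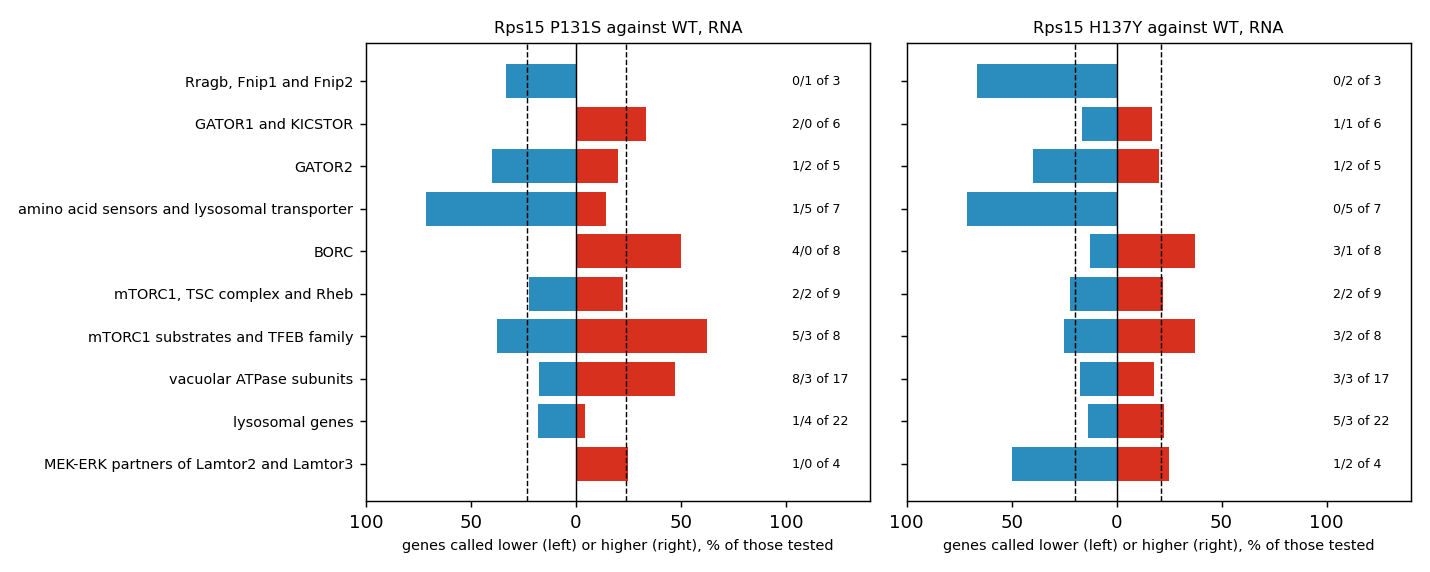
Genes of each pathway list called lower (blue, left) or higher (red, right) in RNA, as a percentage of the genes tested, in Rps15 P131S and Rps15 H137Y against WT. Dashed lines mark the share of all genes called in each direction, and the numbers at the right give genes higher/lower of those tested. The amino acid sensors have 5 of 7 genes lower in both.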

How the data were processed

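The authors deposited 1 table of expected counts per Ensembl gene for 48 libraries, with fractional values and no normalization. The submitters' processing notes name STAR 2.6.1d, Salmon 1.4.0, DESeq2 1.30 and build GRCm38, with no role given. Whether reads were counted over whole transcripts or coding sequence, and how shared reads were split, is not given in the sources used here. Deposited counts were rounded. Each level was tested with edgeR's quasi-likelihood test (edgeR 4.0.16, R 4.3.3) on all genotypes in 1 fit, with TMM scaling within each assay and filterByExpr, and p-values adjusted by the Benjamini-Hochberg method over 12814 genes in RNA, 16217 in footprints and 16568 in translational efficiency, the interaction of assay and genotype. The threshold was 0.05, tests were two-sided, and SE is the log2 change over the root of F. Scripts were tested on simulated data. Alternatives were DESeq2, limma voom, library totals, no filter, a fit to the 2 genotypes alone, a clone block, per-clone log ratios (pseudocount 0.5 CPM) and leaving out each clone. Depth was 13029073 to 38258559 counts in RNA and 15598994 to 72044439 in footprints. Libraries of 1 clone number deviated together from their genotype mean in both assays (24 of 24 correlations above 0.1, 0.226 to 0.696 over 8441 genes). Between clones the range was -0.601 to 0.054. That range is no separate evidence, because deviations from the mean of 3 clones cancel each other. The libraries of a clone also come from a divided lysate, so the numbers pair them. The main efficiency fit had no clone term, so its SE and adjusted p do not use this pairing. The clone block and the per-clone log ratios do. No 2 clones of a genotype were alike within sampling noise in either assay (48 pairs). For 1 gene the smallest two-sided p of an exact permutation test over 3 clones a group is 0.1. Members, lists and the naming rule (from each list, up to 2 called genes with the largest change whose clones did not overlap) were chosen with earlier results of these data known. Promoter windows are RefSeq's. Proteins and gene lengths were not used here, so levels are not compared between genes. Some genes of the marker and pathway lists are not reported here.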

Additional observations from a re-analysis of the deposited data

Results flagged for a closer look

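The effects of Rps15 P131S and Rps15 H137Y, both measured against the same WT clones, differed by the edgeR test for 4 members in RNA. P131S was above H137Y by log2 0.25 for Lamtor3, 0.72 for Lamtor4, 0.29 for Lamtor5 and 0.31 for Rraga, beside 12.6% of all genes called higher. All 3 P131S clones were above all 3 H137Y clones for each, but how often other genes separate in this way was not computed. The edgeR test called none of the 4 when only the 6 libraries of these genotypes entered the fit. The Lamtor3 difference was also lost without P131S clone 20 (0.15, adjusted p = 0.135). The myeloid and erythroid marker sums and the RNA level of Rps15 given above differ among these clones, and their part in these differences was not tested.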

How the results depend on the processing

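Of 534 recomputed log2 changes of members, 471 kept their direction and, where tested, their side of the threshold, or for Lamtor1 moved by less than the SE. They cover Lamtor1 in every comparison, the changes called in the main fit and a few uncalled Rps15 changes of Lamtor4, Lamtor5 and Rraga. Other uncalled changes, among them all of Lamtor2 and Rragc, are not in this tally. The number of members called moved as follows: RNA in Rpl22-/- was 2 with DESeq2 (Rragc beside Flcn) and 0 to 1 with a clone left out. RNA in R98S was 3 and RNA in P131S against H137Y was 0 when only the 2 genotypes were fitted, and RNA in H137Y was 5 with library totals. Footprints in P131S had 1 call with library totals (Lamtor4, lower, in place of Lamtor5 and Rraga), 1 with no count filter and with the 2 genotypes alone (Rraga), and 1 to 2 with a clone left out. Footprints in P131S against H137Y had 1 with DESeq2 and limma voom and 0 to 1 with a clone left out. Lamtor1 in Rps15 P131S, Rpl22-/- and R98S kept its direction under every alternative, with footprint changes of 1.91 to 2.34, 1.22 to 1.3 and -0.73 to -0.56. Its ratio in P131S and Rpl22-/- led to its choice, so the stability there is no independent support.

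Changes near 0 turned sign. With a clone left out, Lamtor1 RNA ran from -0.02 to 0.04 in Rpl11+/- and from -0.01 to 0.15 in Rpl22+/-, its Rpl5+/- footprints from -0.26 to 0.22 and their efficiency from -0.25 to 0.29. Likewise Lamtor4 efficiency ran from -0.17 to 0.06 in P131S and from -0.12 to 0.12 in H137Y, and that of Lamtor5 from -0.10 to 0.18 and from -0.22 to 0.05. With library totals Lamtor1 RNA was -0.08 in Rpl11+/- and -0.06 in H137Y, its Rpl5+/- footprints were -0.01 and Lamtor4 efficiency in H137Y was 0.04. With limma voom Lamtor1 in Rpl5+/- was -0.11 in footprints and -0.10 in efficiency. DESeq2 gave an efficiency change of 0.01 for Lamtor4 in H137Y and 0.02 for Lamtor5 in P131S, which was 0.00 with the 2 genotypes alone. The cause was not tested.

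Counts over all genes moved more. With only the 2 genotypes fitted, RNA calls were 1436 for 675 in Rpl22-/-, 4216 for 1647 in R98S, 1248 for 500 in Rpl22+/-, 1869 for 133 in Rpl5+/- and 855 for 1508 in Rpl11+/-, and in P131S against H137Y 378 for 3233 in RNA and 34 for 677 in footprints. DESeq2 called 914 for 520 in P131S efficiency and 765 for 452 in H137Y. The clone block (replicate block) gave 806 for 520 in P131S efficiency, 78 for 36 in R98S, 10 for 1 in Rpl22+/- and 5 for 2 in Rpl22-/-, and changed no call of a member. Flcn in P131S (adjusted p = 0.0516), Lamtor5 in H137Y RNA (0.0973) and Lamtor5 in P131S footprints (0.0912) missed the threshold with no count filter. With a clone left out, RNA calls were 791 to 1087 in R98S, 320 to 425 for Rpl22-/- and 211 to 336 for Rpl22+/-, while Rpl11+/- gave 598 to 2184 and Rpl5+/- gave 1 to 28. Footprint calls were 50 to 128 in R98S (263 with all clones), 2 to 186 in Rpl11+/- (12), 5 to 252 in Rpl22+/- (41), 6 to 10 in Rpl22-/- (17) and 324 to 817 in P131S against H137Y, and efficiency calls 218 to 421 in P131S, 184 to 374 in H137Y, 12 to 21 in R98S and 0 to 153 in Rpl22+/-. Counts limit the footprint values of Flcn, with as few as 29 in a library, and Rragc, with 81.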

Other observations

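Rragb, the paralog of Rraga, had 3.05, 3.25 and 3.57 footprint CPM per RNA CPM in WT clones 3, 2 and 1, and 3.15, 4.03 and 4.47 in Rps15 H137Y clones 16, 6 and 2. Its RNA in WT was 14 ± 0.534 CPM (SD, n = 3), and its footprint counts were fractional in 21 of 24 libraries, as were those of Rraga.

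In RNA of Rpl10 R98S, the lysosomal genes Psap and Sgsh were called in opposite directions. Psap, which encodes the precursor of the saposins, went from 249 ± 8.20 CPM in WT to 172 ± 4.04 (SD, n = 3, log2 change -0.53 ± 0.10, edgeR adjusted p = 0.00133). Sgsh, a heparan sulfate sulfatase, went from 0.983 ± 0.160 to 2.77 ± 0.919 CPM (1.48 ± 0.40, adjusted p = 0.0189). Wipi1, an autophagy gene, had 36.9 ± 1.04 CPM of RNA in WT and was lower in P131S (17.4 ± 7.75 CPM, -1.09 ± 0.25) and H137Y (21.3 ± 5.49 CPM, -0.79 ± 0.24).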
